A study of Mus musculus with 2 samples.

Results

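The 10 genes described here encode the 2 widely expressed metallothioneins of the mouse (Mt1 and Mt2) and 8 proteins that store, release, import or export iron (Fth1, Ftl1, Hmox1, Slc40a1, Tfrc, Slc11a1, Slc11a2 and Slc39a14). They are 10 of the 34745 gene identifiers in the table. They were chosen by symbol, with their levels in these same libraries already known, so all differences between the libraries are given as descriptions and without a test. The cells were primary macrophages derived from C57BL/6 bone marrow. All had been transfected with an antisense oligonucleotide (ASO) and exposed to lipopolysaccharide (LPS), a bacterial cell wall component that activates macrophages. The control group received Control-ASO and the other group AclyE14-ASO, an oligonucleotide named for Acly, the gene of ATP-citrate lyase. Both groups received LPS, and no group without LPS or without transfection is analysed here. The labels give neither the age of the mice nor the dose and duration of LPS.

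Each group was 1 library, so no difference has a replicate check. The Control-ASO library held 14215397 gene counts and the AclyE14-ASO library 12751076. Levels are given as FPKM, the counts scaled by gene length and by the library total. Acly had 1549 counts with Control-ASO and 768 with AclyE14-ASO, 44.7% lower per library total. A gene was called measured where its 2 values averaged 1 FPKM or more, which 8658 genes and 9 of the 10 listed genes reached. Slc40a1 was the exception. Differences are log2 ratios of FPKM + 1, AclyE14-ASO over Control-ASO, which understate the change where levels are low. The count ratio divides each count by its library total, uses no pseudocount, and carries an exact 95% interval for counting error only.

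Macrophages take up iron from transferrin, from free iron and from engulfed red cells, and return much of it to the blood. Iron inside the cell is held in the ferritin shell, and excess leaves through the exporter ferroportin. Iron regulatory proteins tune this balance by binding a small RNA hairpin, the iron-responsive element. Binding in a 5′ UTR blocks translation, and binding in the 3′ UTR of the transferrin receptor mRNA protects it from decay. Metallothioneins are small cysteine-rich proteins that bind zinc and copper. Their genes are induced by zinc through the factor MTF-1, which binds metal response elements in their promoters, and by inflammatory signals.

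The hairpins are shown because they are the sequence feature that ties some of the iron genes to one control system. The search looked for the letters CAGTGN with A, C or T as the last base, flanked by 5 bases on each side that can pair, and an unpaired C before the stem. It was run on the sense strand of GENCODE M21 protein-coding transcripts. Of 21901 genes 222 (1.01%) held a match, among them 4 of the 10 genes here. Fth1, Ftl1 and Slc40a1 matched in the 5′ UTR and Tfrc, with 4 matches, in the 3′ UTR. An element that departs from this pattern would be missed, so the matches need not be all elements of a gene. The Tfrc labels give the order of the matches only. Each match is printed 5′ to 3′ over 29 bases, with the loop in capitals.
Fth1, chr19:9982732-9982760, plus strand: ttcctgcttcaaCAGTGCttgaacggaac
Ftl1, chr7:45459779-45459807, minus strand: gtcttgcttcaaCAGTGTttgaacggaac
Slc40a1, chr1:45925465-45925493, minus strand: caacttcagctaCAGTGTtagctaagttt
Tfrc first element, chr16:32631219-32631247, plus strand: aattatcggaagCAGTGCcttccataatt
Tfrc second element, chr16:32631598-32631626, plus strand: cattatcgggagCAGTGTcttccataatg
Tfrc next element, chr16:32631663-32631691, plus strand: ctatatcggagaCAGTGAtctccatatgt
Tfrc last element, chr16:32631710-32631738, plus strand: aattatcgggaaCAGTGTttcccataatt

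The coordinates are on GRCm38, the assembly also called mm10. The annotated protein-coding transcripts of Mt1, Mt2, Hmox1, Slc11a1, Slc11a2 and Slc39a14 held no match to this pattern. This does not say that the loop letters were absent, since a match also needed flanking bases that pair and an unpaired C. An element with a different stem in these genes would be missed. RNA counts do not read the translational block that a 5′ element exerts.

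The promoters of Mt1 and Mt2 are shown because these genes were the highest of the listed genes by ratio. RefSeq windows of GRCm38 were held for 6 of the 10 genes. The core of the metal response element, TGCNCNC, was searched on both strands of the 250 bases before the RefSeq start, and it includes the narrower forms TGCACNC and TGCGCNC. The capitals mark each match on either strand.
Mt2, chr8:94172368-94172617, plus strand: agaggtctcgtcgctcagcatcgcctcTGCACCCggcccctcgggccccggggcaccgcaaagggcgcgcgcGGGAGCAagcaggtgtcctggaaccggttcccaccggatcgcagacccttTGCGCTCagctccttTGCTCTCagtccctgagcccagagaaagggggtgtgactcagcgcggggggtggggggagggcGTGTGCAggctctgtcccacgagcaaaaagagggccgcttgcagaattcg
Mt1, chr8:94178839-94179088, plus strand: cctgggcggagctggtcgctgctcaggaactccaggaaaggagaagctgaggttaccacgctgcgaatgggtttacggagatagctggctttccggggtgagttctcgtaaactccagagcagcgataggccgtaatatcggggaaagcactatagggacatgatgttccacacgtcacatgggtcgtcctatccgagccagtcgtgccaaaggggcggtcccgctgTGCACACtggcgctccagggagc

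Before the RefSeq start the Mt2 window held 5 matches and the Mt1 window 1. These counts depend on the start used. GENCODE begins Mt1 at 94179082, inside its window, and Mt2 at 94172664, past the end of its window. The 2 promoters are therefore not ranked by their matches. Of all 32851 RefSeq windows, 44.4% held at least 1 match and 0.344% held 5 or more. Over the whole window of 300 bases, which adds 50 bases after the start, Mt2 had 6 matches and Mt1 3, and 0.225% and 7.10% of all windows had as many. The windows of Fth1 and Ftl1 held 0 matches before the start, Slc11a1 held 2, and the 2 windows of Tfrc held 3 and 1. The antioxidant response element core TGACNNNGC, found in 10.2% of windows, was present once before the start of Mt2 and in none of the other windows of these genes.

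Among the 9 measured genes, Mt1 and Mt2 exceeded their Control-ASO level by 1.5-fold or more after AclyE14-ASO, Hmox1 was lower by that margin, and 6 lay between. Over all measured genes of the table, 7.03% were higher and 8.48% lower by that rule, 609 and 734 genes. Centring on the median gene turned that split to 851 and 406. The median log2 ratio of the 9 genes was -0.24, and that of all measured genes -0.13. Read by counts, without the pseudocount and without the level limit, 3 of the 10 genes were higher (Mt1, Mt2 and Slc39a14) and 2 lower (Hmox1 and Slc40a1). By counts 9.40% of measured genes were higher and 14.4% lower. The genes were chosen with these ratios known, so nothing is read from these shares.

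**Figure D1:**
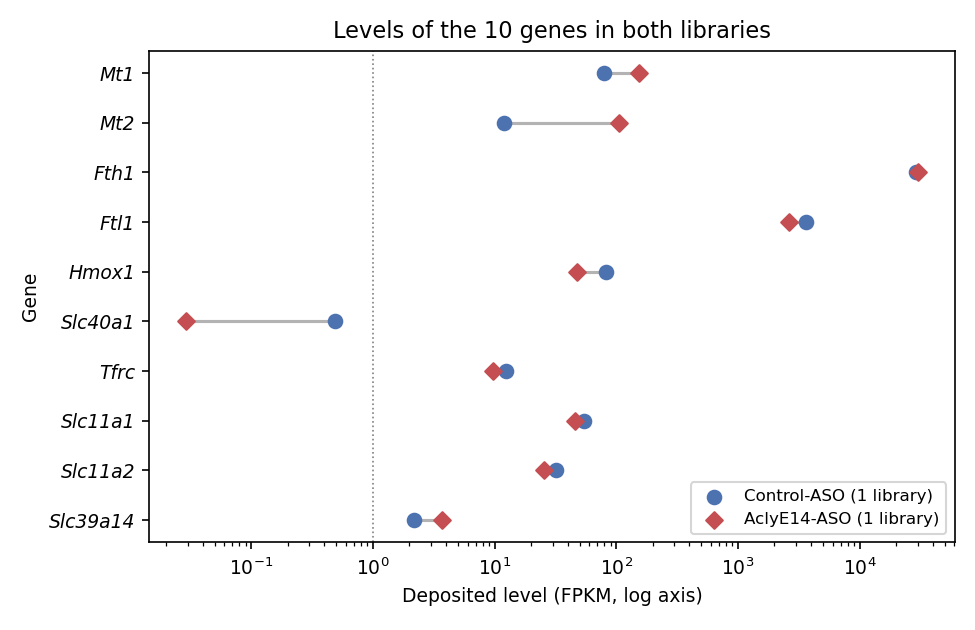
Deposited level of each of the 10 genes in FPKM (log axis), with Control-ASO as circles and AclyE14-ASO as diamonds, 1 library each; the dotted line marks 1 FPKM. Mt2 spans 12.02 to 105 FPKM, the Fth1 points lie at 29290 and 30338 FPKM, and both Slc40a1 points lie left of the line.

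Metallothionein RNA was the part of the list that differed most in the upward direction. Mt2 (ENSMUSG00000031762, chromosome 8, 94172664 to 94173568, plus strand) was at 12.02 FPKM from 95 counts with Control-ASO and 105 FPKM from 743 counts with AclyE14-ASO. The count ratio was 8.72, with an interval of 7.03 to 10.9, and the log2 ratio 3.02. Only 0.0231% of measured genes had a higher log2 ratio. Mt1 (ENSMUSG00000031765, chromosome 8, 94179082 to 94180327, plus strand) was at 80.0 FPKM from 614 counts and 155 FPKM from 1066 counts. Its count ratio was 1.94, with an interval of 1.75 to 2.14, and its log2 ratio 0.94. Of measured genes, 3.49% had a higher one.

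Both genes were thus high in the same library, but not to the same degree. With Control-ASO, Mt2 stood at 0.150 of the Mt1 level per length (counting interval 0.120 to 0.187). With AclyE14-ASO it stood at 0.677 (0.616 to 0.744). These intervals do not overlap, but they cover counting error only, with 1 library per group. Mt1 was the more abundant gene in both libraries. The summed counts of both went from 709 to 1809, a ratio of 2.84 with an interval of 2.61 to 3.11. No other annotated gene matched Mt1 at 90% identity over 200 bases. Mt2 shares bases with Gm45774, an antisense gene not analysed here, and the sources do not say whether the counting used the strand.

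The other metallothioneins were close to silent. Mt3, best known from brain, had 2 and 4 counts, and Mt4, a gene of stratified epithelia, had 0 in both libraries. Mtf1, the gene of the zinc-sensing factor, was at 1.52 FPKM with Control-ASO and 1.39 with AclyE14-ASO, a count ratio of 0.917 (0.777 to 1.08). Slc30a1, the zinc exporter that is another known target of that factor, was at 10.02 FPKM with Control-ASO and 8.19 with AclyE14-ASO. Its count ratio was 0.817 (0.736 to 0.908) and its log2 ratio -0.26, within 1.5-fold. The part of that factor in the Mt1 and Mt2 values was not tested.

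**Figure D2:**
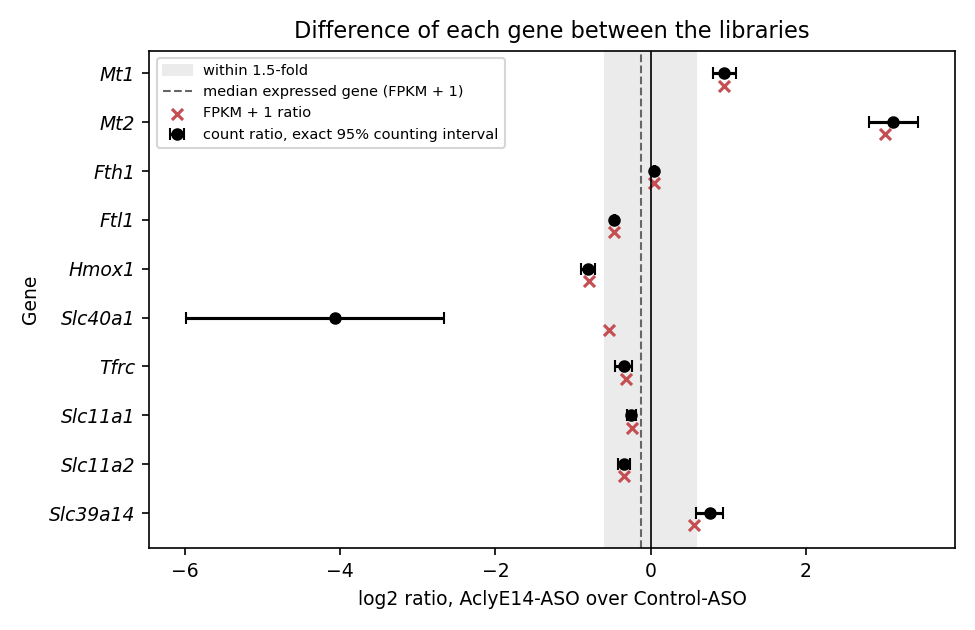
The log2 ratio of AclyE14-ASO over Control-ASO for each gene, as the count ratio (black points, bars for the exact 95% counting interval) and as the ratio of FPKM + 1 (red crosses). By counts Mt1, Mt2 and Slc39a14 lie right of the grey 1.5-fold band and Hmox1 and Slc40a1 left of it, while the crosses of Slc39a14 and Slc40a1 lie inside; the 2 measures part most for Slc40a1, which had 75 and 4 counts.

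Ferritin RNA was by far the most abundant of the group, and its chains moved apart. Fth1 encodes the heavy chain, which oxidises iron on entry to the shell (ENSMUSG00000024661, chromosome 19, 9980598 to 9985098, plus strand). It was at 29290 FPKM from 360575 counts with Control-ASO and 30338 FPKM from 335008 counts with AclyE14-ASO. It ranked first of all genes in both libraries and held 2.54% and 2.63% of all counts. The count ratio was 1.04, with an interval of 1.03 to 1.04. Ftl1 encodes the light chain, which favours formation of the iron core (ENSMUSG00000050708, chromosome 7, 45457944 to 45459884, minus strand). Ftl1 was at 3622 FPKM from 145519 counts and 2624 FPKM from 94562 counts, 27.6% lower by counts (27.0% to 28.1%). Its log2 ratio of -0.46 lay within 1.5-fold, and 14.4% of measured genes had a lower one.

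Heavy to light chain RNA was therefore higher with AclyE14-ASO. On the deposited FPKM the Fth1 to Ftl1 ratio was 8.09 (8.04 to 8.14) with Control-ASO and 11.6 (11.5 to 11.6) with AclyE14-ASO, 1.43 times as high. The size of either ratio depends on the gene length used. The deposited FPKM imply 2826 bases for Ftl1, against 968 in the transcript that GENCODE numbers first, and 866 for Fth1, against 929. All GENCODE exons of Ftl1 together cover 1340 bases, fewer than the deposited FPKM imply. On those transcript lengths the ratios were 2.58 and 3.69. The 1.43-fold step between the libraries does not depend on the length, but it leaves out the near copies of Ftl1 described next.

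Ftl1 has near copies in the mouse genome, and how the authors assigned shared reads is not stated. Of 8 copies elsewhere in the genome 2 are analysed here. The genes Gm10252 and Gm22133, which overlap Ftl1, are not analysed here. The copy Ftl1-ps1 on chromosome 13, 99.6% identical over 910 bases, had 19351 and 17020 counts, a ratio of 0.981. Another copy, Ftl2-ps, had 8 and 2 counts. With both added, Ftl1 had a ratio of 0.754 (0.749 to 0.760), so the light chain stayed on the lower side and within 1.5-fold.

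Heme oxygenase 1 opens the heme ring and frees its iron. Its gene was the only measured one of the list that was lower by 1.5-fold or more. Hmox1 (ENSMUSG00000005413, chromosome 8, 75093621 to 75100589, plus strand) was at 82.9 FPKM from 3263 counts with Control-ASO and 47.5 FPKM from 1676 counts with AclyE14-ASO. This was 42.7% lower by counts, with an interval of 39.2% to 46.0%. The log2 ratio was -0.79, and 3.33% of measured genes had a lower one.

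Ferroportin, the only known iron exporter of the cell and itself known to be lowered by LPS in macrophages, was scarce in both libraries. Slc40a1 (ENSMUSG00000025993, chromosome 1, 45908068 to 45926523, minus strand) was at 0.490 FPKM from 75 counts with Control-ASO and 0.0291 FPKM from 4 counts with AclyE14-ASO. The count ratio was 0.0595, with an interval of 0.0158 to 0.159. On FPKM + 1 the log2 ratio was -0.53, within 1.5-fold, since both levels lie below the pseudocount. The deposited FPKM rest on 10761 bases. On the 3370 bases of its first-numbered transcript the levels would be 1.57 and 0.0931 and the log2 ratio -1.23, with a mean that still misses 1.

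**Figure D3:**
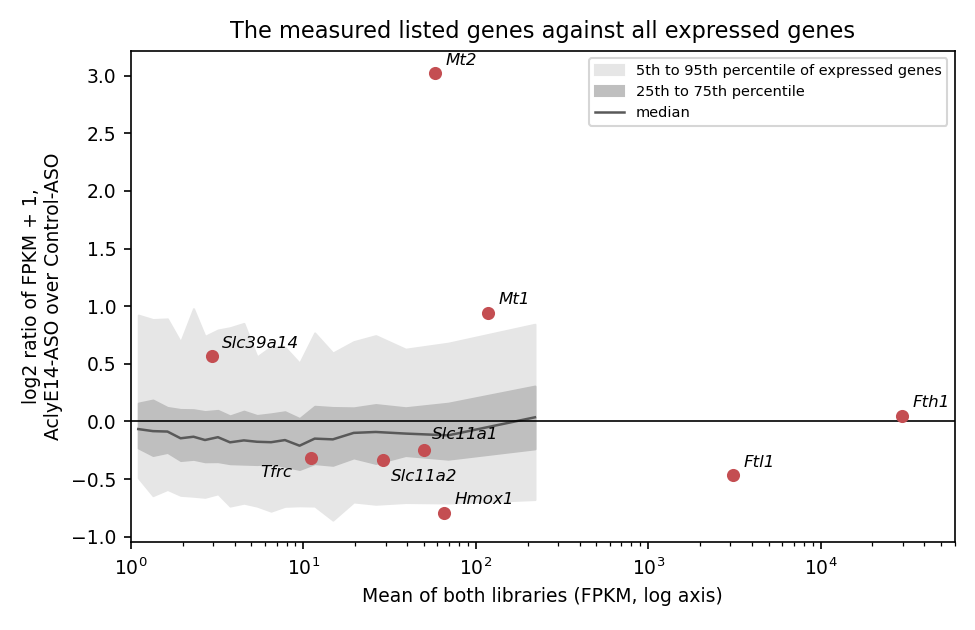
The log2 ratio of FPKM + 1 against the mean FPKM of both libraries (log axis) for the 9 measured genes (red), over the median and the percentile bands of all 8658 measured genes in 20 bins of level. Mt2, at 3.02, and Mt1, at 0.94, lie above the bands and Hmox1, at -0.79, below them, while Tfrc, Slc11a1 and Slc11a2 lie in the lower part of the inner band.

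The importers fell into genes that were slightly lower and 1 that was higher. Tfrc encodes the transferrin receptor, the main entry for transferrin-bound iron (ENSMUSG00000022797, chromosome 16, 32608920 to 32632794, plus strand). Tfrc was at 12.4 FPKM from 1696 counts with Control-ASO and 9.72 FPKM from 1195 counts with AclyE14-ASO, 21.4% lower by counts (15.4% to 27.1%). Slc11a2 encodes DMT1, which carries iron out of endosomes into the cytosol (ENSMUSG00000023030, chromosome 15, 100387898 to 100425072, minus strand). It was at 32.3 FPKM from 3320 counts and 25.4 FPKM from 2340 counts, also 21.4% lower (17.1% to 25.5%). On the deposited FPKM the ratio of Slc11a2 to Tfrc was 2.61 in both libraries, a size that depends on the gene lengths used.

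Slc11a1 encodes NRAMP1, the metal transporter of the phagosome membrane, of which C57BL/6 mice carry a loss-of-function form. The gene (ENSMUSG00000026177, chromosome 1, 74375195 to 74386062, plus strand) was at 54.3 FPKM from 5927 counts with Control-ASO and 45.7 FPKM from 4476 counts with AclyE14-ASO. It was 15.8% lower by counts (12.5% to 19.0%). The log2 ratios of Tfrc, Slc11a1 and Slc11a2 were -0.32, -0.24 and -0.34, all within 1.5-fold. Of measured genes, 26.9%, 35.6% and 25.1% had a lower one, and the median of all measured genes was itself -0.13.

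Slc39a14 encodes ZIP14, an importer of zinc, manganese and non-transferrin iron. The gene (ENSMUSG00000022094, chromosome 14, 70303469 to 70351425, minus strand) was at 2.19 FPKM from 455 counts with Control-ASO and 3.71 FPKM from 693 counts with AclyE14-ASO. The count ratio was 1.70, with an interval of 1.51 to 1.92, and the log2 ratio of FPKM + 1 was 0.56. The call depends on the settings. The deposited FPKM imply 14637 bases, against 2098 in the first-numbered transcript, and on the shorter length the log2 ratio was 0.73, past 1.5-fold. It also passed with TMM or medians of ratios, both at 0.64, and when centred, at 0.69. Slc11a2 was 14.8 times the Slc39a14 level with Control-ASO and 6.83 times with AclyE14-ASO on the deposited FPKM, and 5.06 and 2.34 times on the first-numbered transcripts.

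Ordered by deposited FPKM, Fth1 and Ftl1 led in both libraries and Slc39a14 and Slc40a1 came last. The order between them changed. With Control-ASO it ran Hmox1, Mt1, Slc11a1, Slc11a2, Tfrc and Mt2, and with AclyE14-ASO it ran Mt1, Mt2, Hmox1, Slc11a1, Slc11a2 and Tfrc. Below the ferritin genes this order depends on the gene lengths. On the first-numbered transcripts Slc11a1 led them with Control-ASO, at 180 against 146 for Hmox1 and 78.7 for Mt1. With AclyE14-ASO Mt1 and Slc11a1 stood at 152.3 and 151.6 on that scale, above Mt2 at 114 and Hmox1 at 83.8. Slc39a14 was then above Mt2 with Control-ASO, at 15.3 against 13.1, and above Tfrc with AclyE14-ASO, at 25.9 against 19.2, and Slc40a1 alone stayed last in both libraries. Across the 10 genes the share of all counts was 3.67% with Control-ASO and 3.46% with AclyE14-ASO, nearly all of it ferritin. With 2 libraries a gene's pattern is a single ratio, so no genes are named for a likeness to these.

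Other iron handling genes were mixed. Of 34 listed genes 20 were measured, of which 3 were higher and 4 lower, beside 7.03% and 8.48% of all measured genes, and the median log2 ratio was -0.04. Higher were Steap4, a metalloreductase with 8 and 106 counts, Hamp, the gene of the iron hormone hepcidin with 92 and 233 counts, and Trf, transferrin, at 28.04 and 48.6 FPKM. Steap4 was measured only through its level with AclyE14-ASO. Lower were Pcbp1, a cytosolic iron chaperone and the most abundant gene of this list with Control-ASO, at 152 and 71.1 FPKM, Aco1, the gene of iron regulatory protein 1, at 10.9 and 5.87 FPKM, Mcoln1 at 13.7 and 8.33 FPKM, and the haptoglobin gene Hp with 37 and 12 counts. Hp was measured only through its level with Control-ASO. For Steap4 and Hp the level limit therefore fixed the side. Ireb2, the gene of iron regulatory protein 2, was at 6.04 and 5.16 FPKM. Lcn2, which binds bacterial iron carriers, was at 1.71 and 2.09 FPKM. The mitochondrial iron importers Slc25a37 and Slc25a28 had count ratios of 0.992 and 1.34.

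Of 24 genes of heme synthesis, transport and breakdown 18 were measured, of which 0 were higher and 3 lower, beside 7.03% and 8.48% of all measured genes. The median log2 ratio was -0.28, against -0.13 for all measured genes. The counts were 1 higher and 3 lower with TMM or medians of ratios, and 2 higher and 2 lower when centred. The lower genes were Flvcr1, a heme exporter, at 4.17 and 1.69 FPKM, Hebp1, a heme-binding protein, at 9.81 and 5.47 FPKM, and Cpox, an enzyme of heme synthesis, at 3.89 and 2.04 FPKM. Pgrmc1 was nearest to the upper limit, at 19.2 and 28.9 FPKM, and Tspo, the gene of highest level here, was at 190 and 262 FPKM. Bach1, the heme-sensing repressor of Hmox1, was at 15.3 and 15.5 FPKM, and Alas1, which starts heme synthesis, at 47.3 and 38.7 FPKM. Slc48a1, which carries heme out of the phagolysosome, had a count ratio of 1.05.

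Of 25 zinc transporters, regulators and other metallothioneins 15 were measured, of which 0 were higher and 1 lower, beside the 7.03% and 8.48% of all measured genes. The median log2 ratio was -0.07. Slc39a7, the zinc channel of the endoplasmic reticulum, was lower, at 15.1 and 8.72 FPKM. Slc39a1 had the highest level of the list, 96.6 and 124 FPKM, and Slc39a11 was at 10.2 and 13.9 FPKM. Slc39a9 and Slc39a3 had log2 ratios of -0.52 and -0.47.

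Hmox1, Fth1 and Ftl1 are also known as targets of the stress factor NRF2, so other targets and regulators of that pathway were set beside them. Of 16 listed genes 15 were measured, of which 1 was higher and 6 lower, beside the same shares of all measured genes, 7.03% and 8.48%. The lower count was 4 with TMM, medians of ratios or centring. The median log2 ratio was -0.48. Gclc, which makes the glutathione precursor, was lower, at 5.45 and 1.95 FPKM, as were Pgd, G6pdx, Gsr, Taldo1 and Txnrd1, with log2 ratios of -0.64 to -0.86. Nqo1 was higher, at 4.26 and 21.3 FPKM. Prdx1 had the highest level in both libraries, 541 and 454 FPKM, with Srxn1 at 36.3 and 47.0 FPKM, and Nfe2l2, the gene of NRF2 itself, at 39.2 and 27.5 FPKM. Genes of this list lay on both sides, and the part of NRF2 in the Hmox1, Fth1 and Ftl1 values was not tested.

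**Figure D4:**
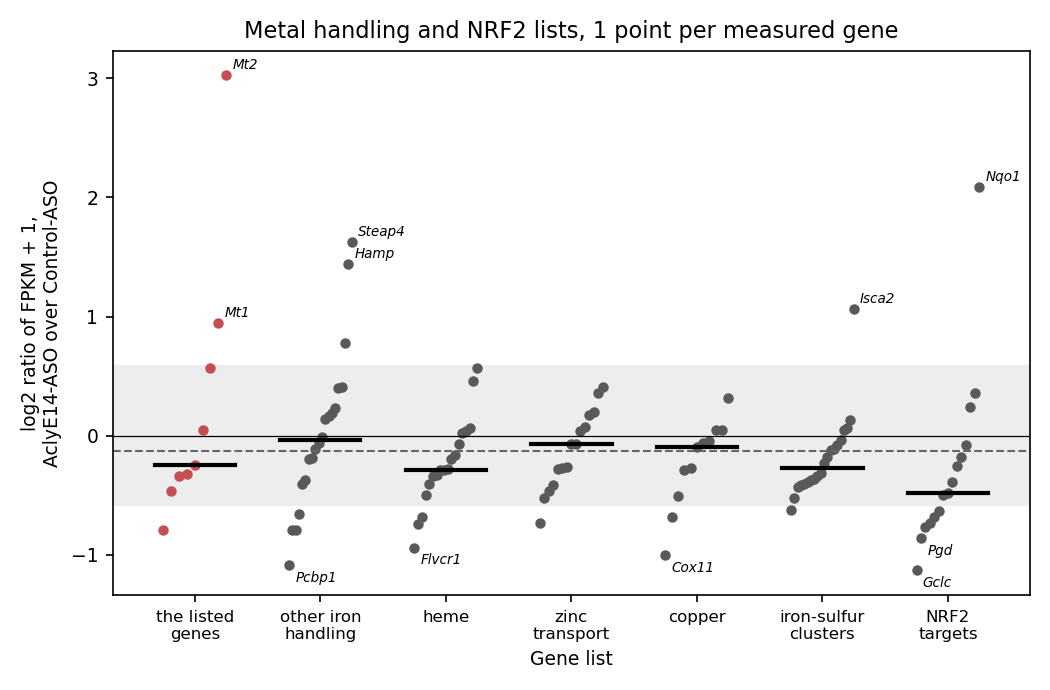
The log2 ratio of FPKM + 1, 1 point per measured gene, for the 10-gene list (red, 9 measured) and 6 related lists; bars are list medians, the dashed line is the median of all measured genes and the grey band is 1.5-fold. Most genes of every list lie in the band, and Mt2, at 3.02, and Nqo1, at 2.09, stand highest.

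Markers of other cell types differed between the libraries too. All 15 fibroblast and stromal markers had counts in at least 1 library, and 9 were measured. All 9 were higher with AclyE14-ASO by 1.5-fold or more, beside 7.03% of all measured genes. Of these, Pdgfra (0.338 and 2.22 FPKM) and Thy1 (0.243 and 3.44 FPKM) were measured only through the AclyE14-ASO library, so their side was fixed by the level limit. Their summed level over all 15 was 58.9 FPKM with Control-ASO and 248 FPKM with AclyE14-ASO. Of 17 macrophage markers 13 were measured, of which 4 were higher and 2 lower, beside 7.03% and 8.48% of all measured genes. Higher were Itgam, Cd14, Fcgr1 and Msr1, and lower were Cebpa and Cd68. The sums were 12256 and 15556 FPKM, led by Lyz2. Of 12 erythroid markers 0 were measured and 8, among them Hbb-bs, Hbb-bt and Hba-a1, had no counts. Of 12 neutrophil markers 3 were measured, of which 1 was higher and 0 lower, beside 7.03% and 8.48% of all measured genes. The higher one was S100a8, at 19.7 and 41.4 FPKM, which led the sums of 26.2 and 50.6 FPKM. No counts were found for 5 of the 12, among them S100a9 and Ly6g. Of 7 endothelial markers 2 were measured, of which 0 were higher and 1 lower, beside the same shares of all measured genes. The lower one was Kdr, at 11.1 and 5.49 FPKM, which led the sums of 13.0005 and 8.45 FPKM. Tek and Emcn had no counts. Of 10 lymphocyte markers 1 was measured, with sums of 3.80 and 5.45 FPKM, and Cd3d, Cd3e, Cd8a and Ncr1 had no counts. Of 8 dendritic cell markers 1 was measured, with sums of 121 and 134 FPKM, nearly all from Itgax, which macrophages express as well, and Xcr1, Siglech and Flt3 had no counts. The part of these other cells in the metallothionein, ferritin and Slc39a14 values was not tested. In bulk RNA fewer cells of a type and less RNA per cell cannot be told apart.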

How the data were processed

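RNA of both libraries was sequenced. Per the labels' protocols, mRNA was captured with beads, and 2 library preparation kits, 1 of them stranded, are named. The authors deposited raw counts and FPKM per gene. HISAT2, StringTie 1.3.0, edgeR and mm10 are named in the submitters' processing notes, with no role. For each of 10077 genes the worth of 1 count in FPKM was 1.11 times as high in the smaller library, as the count totals give, so the deposited FPKM were scaled by total counts alone.

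Symbols, positions and overlaps came from GENCODE M21 (GRCm38), which named 34344 of 34745 identifiers. The 10 genes and the lists were chosen with earlier results of these data known. The rule for named genes took the 10 genes, Acly, the most abundant gene of each list and up to 3 genes at each end or past 1.5-fold, and not all of these are printed. Intervals are exact (Clopper-Pearson, 95%) conditional binomial intervals, and, as reads carry no molecular identifiers, they cover counting error only. With 1 library per group no test was run. The calculations were tested on simulated counts. Near copies were found with blastn 2.17.0, at 90% identity over 200 bases. Alternatives were other pseudocounts, level limits and thresholds, scaling by TMM (edgeR 4.0.16, R 4.3.3), by medians of ratios or to the median gene, and CPM. Lengths of the first-numbered transcripts, counts without a limit, and the hairpin search were added after seeing the data. SciPy 1.17.1 gave the intervals, under Python 3.11.15. Protein sequences were not analysed here.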

Additional observations from a re-analysis of the deposited data

How the results depend on the processing

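No paired analysis was possible because each group had 1 library, and no library could be left out. The direction of all 10 genes held under each alternative. Another scaling shifted the log2 scale up by 0.10 (TMM and medians of ratios), 0.13 (centring) or 0.02 (totals without the 10 most abundant genes), less for low genes except when centred. For TMM, medians of ratios, centring and those totals, Fth1 was at 0.152, 0.154, 0.179 and 0.0662 and Ftl1 at -0.363, -0.361, -0.336 and -0.449. For TMM, medians of ratios and centring, Hmox1 was at -0.692, -0.690 and -0.663, Slc11a1 at -0.144, -0.142 and -0.115, and Slc11a2 at -0.238, -0.236 and -0.207. Tfrc was at -0.190 when centred. Ftl1 with its copies added was at -0.406. A pseudocount of 5 gave 2.69 for Mt2 and 0.278 for Slc39a14, and CPM + 1 gave 0.746 for Slc39a14. Slc40a1 was at -2.19 with a pseudocount of 0.1. Slc39a14 passed 1.5-fold, making 3 higher genes, with a pseudocount of 0.1, TMM, medians of ratios, centring, CPM and the other transcript length. At 2-fold, 1 of the 10 genes was higher (Mt2) and 0 were lower. By counts without a limit 2 were lower.

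Over all measured genes, 609 were higher and 734 lower. The higher count was 287 with a pseudocount of 5, 275 at 2-fold and 298 with a mean of at least 5 FPKM. The split was 756 higher against 506 lower with TMM and 759 against 503 with medians of ratios. The lower count was 1184 with a pseudocount of 0.1, 258 with a pseudocount of 5, 406 when centred, 134 at 2-fold and 455 with a mean of at least 5 FPKM. Of 108 recomputed counts of the 6 related lists, 22 moved by more than 1.5 times, by at most 5 genes. Depth limits Slc40a1, with 4 counts in 1 library, most.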

Other observations

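Of 12 copper handling genes 11 were measured, of which 0 were higher and 2 lower, beside 7.03% and 8.48% of all measured genes, and 1 was lower when centred. The median log2 ratio was -0.10, against -0.13 for all measured genes. Cox11 and Sco2, which deliver copper to cytochrome c oxidase, were lower, at 8.57 and 3.77 FPKM and at 13.7 and 8.16 FPKM. The copper chaperone Atox1 was at 173 and 178 FPKM, and Slc31a2 at 168 and 118 FPKM.

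Of 22 iron-sulfur cluster assembly genes 20 were measured, of which 1 was higher and 1 lower, beside the same shares of all measured genes. The median log2 ratio was -0.27. Isca2, a mitochondrial assembly factor, was higher, at 14.3 and 30.9 FPKM. Hspa9, the mitochondrial chaperone of that pathway and the most abundant of the list, was lower, at 145 and 93.3 FPKM. Centring, TMM and medians of ratios each put Hspa9 within 1.5-fold, leaving 0 lower genes.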
